A study of Mus musculus with 2 samples.

Results

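RNase P and RNase MRP are ribonucleoprotein enzymes, and the genes described here encode their protein subunits. A probe belonged to the family when the platform's annotation gave it 1 of 10 gene symbols (Pop1, Pop4, Pop5, Pop7, Rpp14, Rpp21, Rpp25, Rpp30, Rpp38 and Rpp40). This found 10 probes of 8 genes among 9762 named probes of 7939 genes, and 0 named probes for Rpp25 and Rpp40. Names were given only to probes that passed a detection p-value of 0.05 on 1 array or both, so whether these 2 genes were undetected or lacked a probe cannot be told. All 8 genes counted among the 6702 genes measured in the series, meaning that the brightest named probe was detected on 1 array or both at a detection p-value under 0.01. The family was chosen by symbol, after the signals of Pop4 on both arrays had been seen, so its values are given as a description.

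The arrays carried RNA of SN4741 cells, an immortalized mouse line labelled as dopaminergic neuronal cells and kept at 33 C. The overexpression array held cells in which Oxi-beta had been overexpressed for 12 h, and the control array held cells at 0 h. Each array was a pool of 3 samples, so there was 1 array and no replicate per group, no test across samples could be made, and precision is limited by this number of arrays. How Oxi-beta was introduced is not stated in the labels, nor is an empty construct for the control cells. No control array at 12 h was among the samples, so the 12 hours and the overexpression cannot be told apart.

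RNase P removes the leader of precursor transfer RNAs, and RNase MRP cuts precursor ribosomal RNA in the nucleolus. Each enzyme has its own RNA, Rpph1 for RNase P and Rmrp for RNase MRP, and they share most of their proteins. In the human RNase P structure the proteins form a ribbon around the RNA, in which the counterpart of Pop4 (also called Rpp29) sits beside those of Rpp21 and Rpp38.

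Pop4 was the only measured subunit with a large difference between the arrays. The Pop4 probe had a deposited signal of 3151 on the overexpression array, with a detection p-value listed as 0. On the control array its signal was 190.0, with a detection p-value of 0.0122. The transcript was thus well above background in the overexpressing cells and not well above background in control cells, where the lowest detected signal was 201. The size of such a difference depends on how background is treated. With background left in, signals raised to the lowest detected signal of their array and then normalized, Pop4 was at least 16.4-fold higher in overexpressing cells, a log2 difference of 4.03. This was the lowest fold over 10 alternative settings, and the folds given as at least a value in what follows were made the same way. Such a limit holds under this floor and normalization only. The ratio of the deposited signals was 16.6. After background correction the fitted log2 difference was 5.0, or 4.86 with the control value set at the lowest detected one. With 1 named probe for Pop4, its difference was read once.

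Differences of this size were rare on these arrays. Because the family was chosen after the Pop4 signals had been seen, the place of Pop4 among them is a description only. Of 24613 probes, 3 (0.0122%) had a deposited signal at least 10 times higher on the overexpression array, namely those of Pop4, Tnfaip8 and Fbxw5, and 0 had one at least 10 times lower. Among the 6702 measured genes, 39 (0.582%) were 1.5-fold or more higher, 29 (0.433%) were 1.5-fold or more lower, and 19 (0.283%) were 2-fold or more higher. These counts take background-corrected fitted values, also for genes detected on 1 array only. Among the 6470 genes detected on both arrays, 16 (0.247%) were 1.5-fold or more higher. Pop4 was also among the 107 genes (1.6%) detected on the overexpression array only. The direction of these 107 genes follows from that filter, and their lower limits were not allowed to fall below no change. With background left in and signals raised to the floor, the median of these lower limits was 1.06-fold. By the same limits 5 of the genes were at least 2-fold higher, and 2, Pop4 among them, were at least 10-fold higher.

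**Figure D1:**
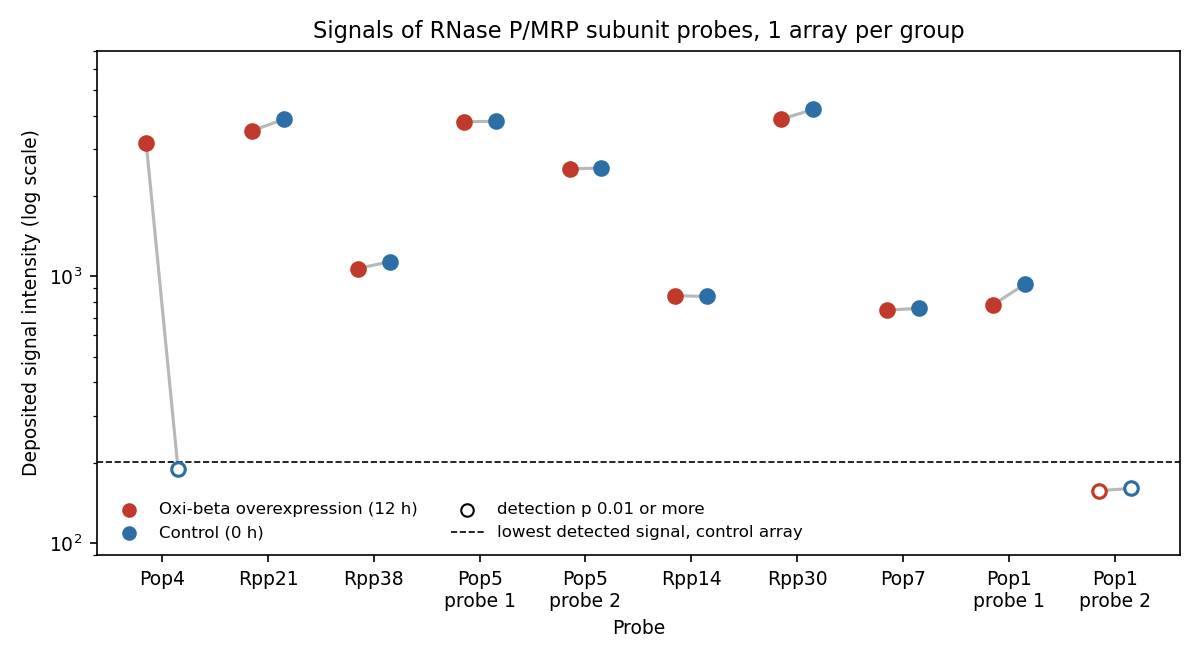
Deposited signal intensity (log axis) of the 10 subunit probes on the Oxi-beta overexpression array (red, left of each pair) and the control array (blue, right), with 1 array per group and no error bars. Open symbols have a detection p-value of 0.01 or more, and the dashed line is the lowest detected signal on the control array (201). Pop4 stands at 3151 in overexpressing cells and 190.0 in control cells, and the lines of the other 9 probes are almost level.

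The partners of Pop4 did not share its difference. For Rpp21, a zinc-binding subunit of RNase P that pairs with Pop4 in the enzyme, the signal was 3510 on the overexpression array and 3875 on the control array. Its normalized log2 difference, overexpression minus control, was -0.067. Rpp38, which belongs to a family of proteins that bind kink-turns in RNA, had signals of 1069 on the overexpression array and 1134 on the control array, and a log2 difference of 0.013. Both probes were detected on both arrays, so their near-equal values were not set by a background floor.

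The subunits placed around Pop5 also had small differences between the arrays. This does not set them apart, as 78.3% of all measured genes had a log2 difference of at most 0.18 in size. Pop5, a conserved protein whose archaeal counterpart assists catalysis, was read by 2 probes. The brighter had signals of 3792 on the overexpression array and 3809 on the control array, and the dimmer had 2524 on the overexpression array and 2548 on the control array. Their log2 differences were 0.067 and 0.059, so the probes gave almost the same result. Rpp30, the partner of Pop5, had signals of 3878 on the overexpression array and 4217 on the control array, and a log2 difference of -0.060. Rpp14, a small subunit of the same subcomplex, had signals of 846 on the overexpression array and 840 on the control array, and a log2 difference of 0.12. Among the subunits other than Pop4, Rpp14 had the highest normalized difference.

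Pop7 (also called Rpp20), which pairs with Rpp25 to hold an arm of the enzyme RNA, had signals of 746 on the overexpression array and 758 on the control array. Its log2 difference was 0.078. Rpp25 itself had no named probe, but its paralogue Rpp25l had signals of 538 on the overexpression array and 523 on the control array, and a log2 difference of 0.16. Pop1, the largest subunit and a scaffold for the others, had signals of 782 on the overexpression array and 933 on the control array by its brighter probe, a log2 difference of -0.18. This was the lowest value among the subunits. The dimmer Pop1 probe was not well above background on either array, with signals of 157 on the overexpression array and 160 on the control array and a detection p-value of 0.0292 on both. The enzyme RNAs Rpph1 and Rmrp had no named probe.

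Over the 7 subunits other than Pop4, the median log2 difference was 0.013, against -0.004 over all 6702 genes. The values ran from -0.18 to 0.12, with 4 above 0 and 3 below 0, and 0 of the 7 reached 1.5-fold in either direction, where 1.01% of all genes and 0.34% of the 6470 genes detected on both arrays did. All 7 lay within the central 95% of the differences of all genes, which ran from -0.34 to 0.33. No error between arrays or cultures could be had without replicate arrays. Probes of the same gene show how far readings differ within this pair of arrays, which holds probe noise and no difference between cultures. The root mean square SD of log2 differences over 999 genes with several detected probes was 0.149. Of the 7 subunits, 6 had a smaller difference than this and Pop1 a larger one, which says nothing of how such differences would vary between cultures. The signs of these small differences depended on scaling. With median centring in place of quantile normalization, the median of all genes was -0.10 and that of the 7 subunits -0.10, so that 1 of the 7 (Rpp14 at 0.002) was above 0 and 6 were below 0.

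**Figure D2:**
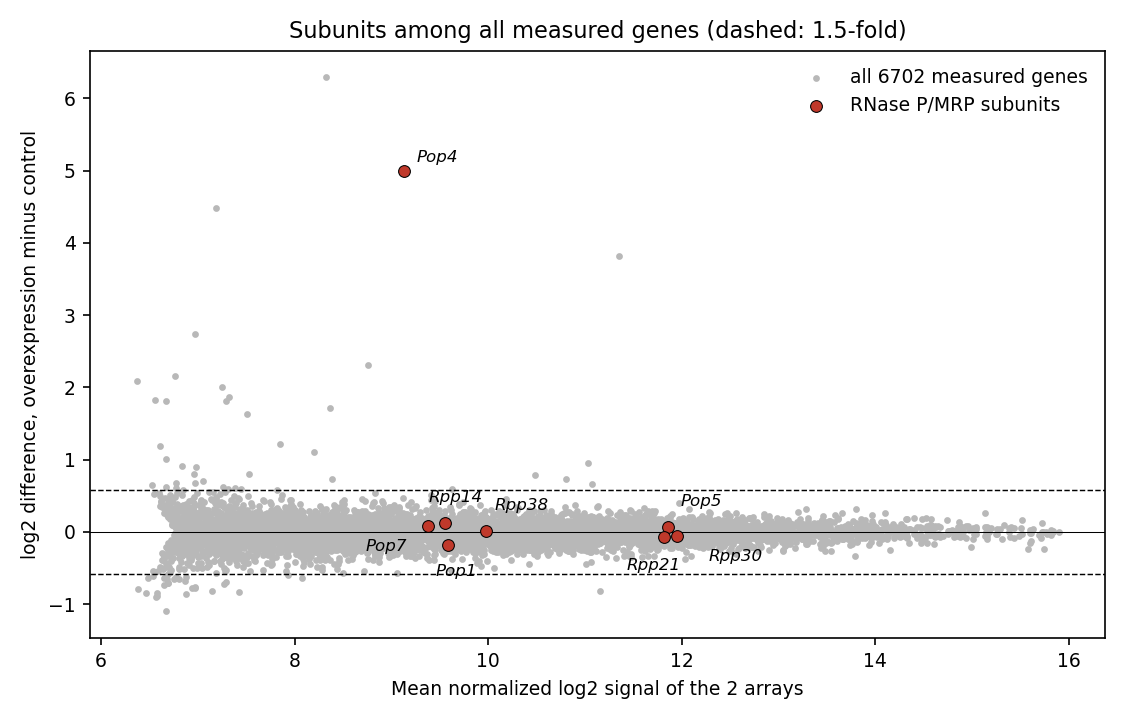
Log2 difference (overexpression minus control) against the mean normalized log2 signal of both arrays for the 6702 measured genes (grey), with the 8 measured RNase P/MRP subunits in red and dashed lines at 1.5-fold. Pop4 stands far above the grey band at its fitted value of 5.0 (4.03 with background left in and signals raised to the lowest detected one), and the other 7 subunits lie within the band, between -0.18 and 0.12.

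Genes whose difference was most like that of Pop4 were sought over the 2 arrays by the distance between fitted log2 differences, and the 5 nearest are given here. Fitted values of genes undetected in control cells are unstable, so the folds printed are those with background left in and signals raised to the floor. Ccl5, a chemokine that attracts T cells, had signals of 753 on the overexpression array and 88.4 on the control array, or at least 3.93-fold higher. Tnfaip8, a regulator of cell death and inflammation, had signals of 9628 on the overexpression array and 814 on the control array and was detected on both, 12.6-fold higher. Fbxw5, an F-box protein that brings substrates to ubiquitin ligases, had signals of 2837 on the overexpression array and 106 on the control array, or at least 14.8-fold higher. Apol9a, a gene of the apolipoprotein L family, was at least 2.09-fold higher, and Irf9, a transcription factor of interferon signalling, was 3.71-fold higher. On these folds Tnfaip8 and Fbxw5 lay close to Pop4, whereas Ccl5 lay close to Irf9.

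The genes beside Pop4 on chromosome 7 were examined to see whether its difference extended to them. Of the 5 protein-coding genes on each side in mouse RefSeq, 3 of 10 had a named probe, all on the same side. Plekhf1, an adaptor protein of endosomes and lysosomes and the nearest protein-coding gene on that side, had signals of 653 on the overexpression array and 675 on the control array and a log2 difference of 0.049. Ccne1, the gene of cyclin E1, had signals of 498 on the overexpression array and 501 on the control array and a difference of 0.087. Uri1, a prefoldin-like protein, had signals of 935 on the overexpression array and 1115 on the control array and a difference of -0.17. None of these 3 neighbours reached 1.5-fold, where 0.34% of all genes detected on both arrays did, so in this they were like most genes. The neighbours on the other side had no named probe and were not read.

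The bases before the annotated start of Pop4 are shown because Pop4 alone of the family was far higher, and those of Rpp14 because that window held the letters of an interferon element although the gene's log2 difference was 0.12. Both are RefSeq windows of 250 bases (build GRCm38.p6), written in the direction of transcription, with Pop4 at chr7:38271349-38271598 on the minus strand and Rpp14 at chr14:8080063-8080312 on the plus strand. Capitals mark the motif matches described next.
Pop4: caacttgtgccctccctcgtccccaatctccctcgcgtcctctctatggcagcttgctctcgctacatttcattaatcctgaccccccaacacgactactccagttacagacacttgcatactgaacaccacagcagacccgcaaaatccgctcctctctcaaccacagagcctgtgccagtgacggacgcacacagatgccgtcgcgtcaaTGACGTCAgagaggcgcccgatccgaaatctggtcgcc
Rpp14: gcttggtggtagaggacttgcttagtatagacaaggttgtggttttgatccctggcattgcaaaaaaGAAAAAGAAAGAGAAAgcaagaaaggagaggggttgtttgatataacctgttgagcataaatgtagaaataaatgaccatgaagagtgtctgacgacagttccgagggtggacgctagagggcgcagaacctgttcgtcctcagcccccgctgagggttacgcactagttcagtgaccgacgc

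Such windows were found for 8 of the 10 family genes and searched on both strands for 5 motifs. The interferon-stimulated response element (GAAA, any 2 bases, GAAA) was found in 2.98% of all 32851 windows. It was absent from the Pop4 window and had 2 matches in the Rpp14 window, which overlap each other in a purine-rich run. The cyclic AMP response element (TGACGTCA), found in 1.55% of windows, matched once in Pop4, with its first base 38 bases before the start, and in no other family window. The gamma-activated site (TTC, any 3 bases, GAA, in 7.02% of windows) matched only in the window of Rpp25, and the NRF1 site (GCGC, any 2 bases, GCGC, in 4.98%) only in that of Pop7. The ETS site (CCGGAAG, 6.91%) matched in 0 of the 8 windows, and Pop5, Rpp30, Rpp38 and Rpp40 held none of the 5 motifs. A match is a run of letters in these windows and was not tied to binding.

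Genes that act before, beside or after RNase P and RNase MRP were compared as lists, over the genes detected on both arrays. Over 6 lists, 69 of 97 genes were measured and 66 of them were detected on both arrays. These 66 had 38 differences above 0 and 28 below 0, with a median of 0.037. Under median centring the counts were 19 above 0 and 47 below 0 with a median of -0.053, beside the shift of all genes to -0.10, so signs near 0 in these lists carry no direction. Of these 66 genes, 0 reached 1.5-fold in either direction, where 0.34% of the genes detected on both arrays did. The other 3 genes passed the detection threshold in control cells alone, and the fitted value of 1 of them was 1.5-fold or more lower. That gene was Wdr4, a subunit of the methyltransferase that modifies guanosine in tRNA, with signals of 158 on the overexpression array and 220 on the control array. In overexpressing cells it was not well above background, and it was at least 1.09-fold lower. Its other probe, not detected on either array, had signals of 173 on the overexpression array and 158 on the control array. Median centring brought a second gene past 1.5-fold lower, Snapc5, whose signals were 171 on the overexpression array and 218 on the control array.

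Mitochondrial RNase P, a separate enzyme made of protein alone, was read through 2 of its 3 genes. Prorp, its nuclease, had signals of 655 on the overexpression array and 827 on the control array and a log2 difference of -0.28. Hsd17b10, a dehydrogenase that forms part of the enzyme, had a difference of 0.013. Of 16 genes for the other end of tRNA and for tRNA splicing, 11 were measured with a median of -0.023. They ran from -0.31 for Zbtb8os, the archease cofactor of the tRNA ligase, to 0.13 for Rtraf, a subunit of the tRNA ligase complex. Elac2, which trims the trailer of precursor tRNAs after RNase P has cut the leader, was at -0.042.

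Of 22 tRNA modification genes, 14 were detected on both arrays and 12 of them had a positive difference (6 under median centring), with a median of 0.081. Trmt6, a subunit of the enzyme that methylates adenosine in tRNA, had signals of 873 on the overexpression array and 678 on the control array and the highest difference of the list at 0.51, which is below 1.5-fold. Among genes detected on both arrays, the pseudouridine synthase gene Pus7 was the lowest at -0.14. RNA polymerase III transcribes the tRNA genes and the RNAs of both enzymes, and 22 of 30 genes for its subunits and factors were detected on both arrays, with a median of 0.028. Snapc1, a subunit of the complex that recognises small nuclear RNA promoters, was the highest at 0.37, and Polr1c, a subunit shared by RNA polymerases I and III, was the lowest of those detected on both arrays at -0.25.

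Genes of pre-rRNA cleavage and the trimming that follows it had a median of 0.055 over the 15 of 22 genes detected on both arrays. Exosc2, a subunit of the RNA exosome, was the highest at 0.15. The exonuclease gene Xrn2 was the lowest at -0.46 by its brighter probe, while its other probe, at about the same brightness, had signals of 315 on the overexpression array and 316 on the control array. The kink-turn relatives of Rpp38 were read through Nhp2, a protein of small nucleolar ribonucleoproteins, at 0.16, and Secisbp2, a selenoprotein synthesis factor, at -0.064.

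**Figure D3:**
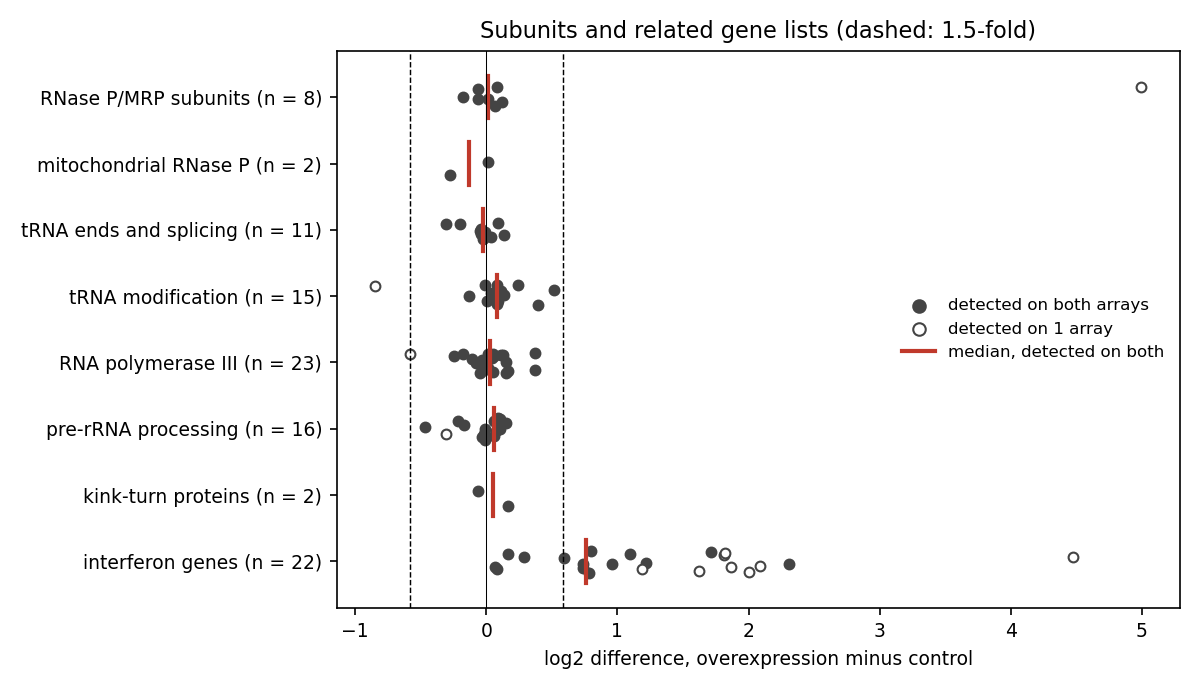
Log2 differences (overexpression minus control) of the measured genes of the RNase P/MRP family, 6 related lists and an interferon list, 1 point per gene, with open points for genes detected on 1 array only (at their fitted values), red bars at the medians of genes detected on both arrays and dashed lines at 1.5-fold. Pop4 stands alone at 5.0 in the top row, the related lists lie around 0, and the interferon genes lie to the right, with a median of 0.76 over the 14 detected on both arrays.

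Many genes known to be induced by interferon were higher on the same array as Pop4. Of a list of 46, chosen with earlier results of these data known, 25 had a named probe and 14 were detected on both arrays. All 14 had a positive difference (12 under median centring) with a median of 0.76. Of these, 10 were 1.5-fold or more higher, and 7 were so with background left in and signals raised to the floor. The share of all genes detected on both arrays was 0.247%, given as a description because of how the list was chosen. A further 8 genes passed the detection threshold in overexpressing cells alone, so their direction follows from the filter, and they were at least 1.19-fold to at least 3.93-fold higher. Their part in the difference of Pop4 was not tested. Markers of the labelled cell type were sparse. Of 16 dopaminergic markers, 4 were measured (Nr4a2, En1, Foxa2 and Gch1), with differences from 0.10 to 0.24. Their median fell from 0.14 to 0.044 under median centring. Nr4a2, Foxa2 and Gch1 were dim, with signals between 255 and 296. The lowest detected signals were 196 on the overexpression array and 201 on the control array. Th, the enzyme that makes the precursor of dopamine, and the dopamine transporter gene Slc6a3 had no named probe. Of 12 markers of neurons in general, 6 were measured, with summed deposited signals of 5546 on the overexpression array and 6264 on the control array. Most of each sum was Stmn2, at 3357 on the overexpression array and 4050 on the control array, so the sums do not describe the markers together. The 4 detected on both arrays were Ncam1 at -0.39, Stmn2 at -0.19, Uchl1 at 0.11 and Syn1 at 0.17, and Tubb3 and Nefm were detected on the overexpression array only. All 6 measured fibroblast and mesenchymal markers of 12 had negative differences, with a median of -0.14, against -0.004 over all 6702 genes. Under median centring all 6 stayed negative with a median of -0.23, beside the shift of all genes to -0.10. The summed deposited signals of these 6 markers were 71886 on the overexpression array and 80411 on the control array. Most of each sum was Vim, at 40776 on the overexpression array and 44580 on the control array. Deposited signals were lower on the overexpression array in general, with a median log2 ratio of -0.079 over all 6702 genes. None of these 6 markers reached 1.5-fold, and their part in the subunits' values was not tested.

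**Figure D4:**
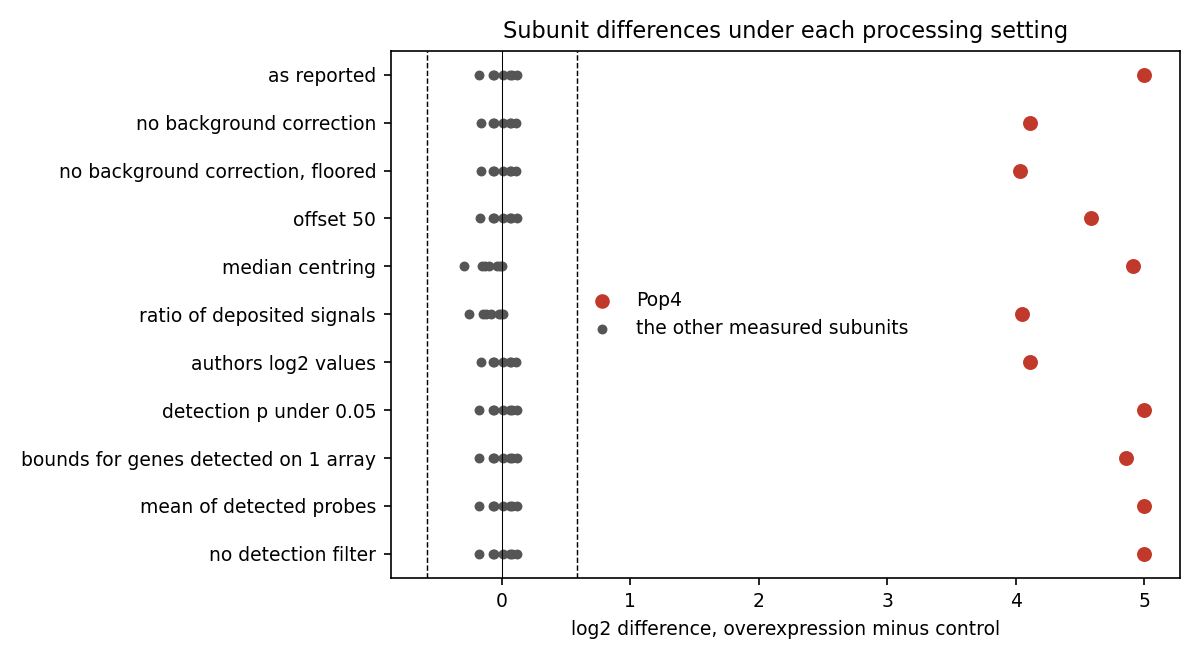
Log2 difference (overexpression minus control) of Pop4 (red) and of the other 7 measured subunits (grey) under the reported setting and 10 alternatives, with dashed lines at 1.5-fold. Pop4 stays between 4.03 and 5.0 in every row, and the other subunits stay between -0.29 and 0.12.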

How the data were processed

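Total RNA of SN4741 cells was hybridised to 2 Illumina arrays, 1 per group, each with a pool of 3 samples per the labels. The deposited non-normalized table holds a signal intensity and a detection p-value for each of 24613 probes on each array, per the file headers. BeadStudio is named in the submitters' processing notes, with no version. Its column named as test was taken as overexpression, the only group that was not the control. The authors' value table holds deposited log2 values of 11090 probes. That scale is read from the values, whose sorted columns are identical (largest difference 0), as quantile normalization gives.

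Intensities were background-corrected with limma 3.58.1 in R 4.3.3 (nec with an offset of 16, which takes background from the detection p-values), then quantile-normalized as log2 values. The procedure was run on simulated arrays in which 200 bright probes were changed. These changes were smaller than that of Pop4, and none took a probe below detection, so the simulation did not cover the Pop4 value. Probes under a detection p-value of 0.01 were called detected, as 8799 probes were on the overexpression array and 8814 on the control array. A gene was read by its brightest named probe on average. The annotation gave 1 symbol to 9762 of the value table's probes, several to 0 and none to 1328. Differences are overexpression minus control, and background subtraction widens ratios of dim probes. No build is named for the platform, so only promoter windows carry coordinates, those of RefSeq. Probe sequences were not used here.

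Members, lists, motifs and settings were chosen with earlier results of these data known. Named genes were all family members with a probe, the highest and lowest gene detected on both arrays and any gene past 1.5-fold of each related list (interferon genes were counted instead), the 5 genes nearest to Pop4 in difference, and the 5 protein-coding neighbours on each side. Elac2, Snapc5 and the cell type markers were named besides, after their values were seen.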

Additional observations from a re-analysis of the deposited data

How the results depend on the processing

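Pop4 was higher on the overexpression array under all 10 alternatives tried, but its size depended on how background was treated, which is what sets the level of a dim control probe. Its log2 difference of 5.0 became 4.11 without background correction, 4.03 with a floor at the lowest detected signal in place of correction, 4.59 with an offset of 50, 4.05 as the ratio of deposited signals and 4.11 with the authors' log2 values. With the control value set at the lowest detected one after background correction it was 4.86, which is no lower limit across these settings. At a detection threshold of 0.05 the control signal counts as detected. The other 7 subunits gave 70 values under the alternatives, of which 0 reached 1.5-fold, and each moved by less than the SD between probes of 0.149. Not all of these were separate checks. Changing or dropping the detection threshold, or bounding genes detected on 1 array, could not alter these 7 subunits. Averaging detected probes moved only Pop5, from 0.067 to 0.063. The authors' values nearly repeated those without background correction. The median of the 7 subunits ran from -0.10 to 0.013. The count of genes 2-fold or more higher was 19, and 8 with floored signals. The count at 1.5-fold or more in either direction was 68. It was 24 without background correction, with deposited ratios and with the authors' values, 19 with floored signals, 41 with an offset of 50, 38 with genes detected on 1 array set at the lowest detected value, and 147 both at a detection threshold of 0.05 and with no detection filter, where more dim genes were tested. No paired analysis was possible because each group had 1 array, and no array could be left out for the same reason. Signal over background limits Pop4 on the control array, where its signal of 190.0 lay just under the lowest detected signal of 201.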

Other observations

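Probes without a gene symbol were also searched for large differences. Of all 24613 probes, 4 had a deposited signal at least 5 times higher on the overexpression array, and 0 of these 4 were unnamed. They were the probes of Pop4, Tnfaip8, Fbxw5 and Ccl5. In the other direction 1 probe was at least 5 times lower, at a signal of 143 on the overexpression array with a detection p-value of 0.0572 and 1136 on the control array, where its detection p-value was listed as 0. This probe had no gene symbol in the annotation used here, and it was picked out after its values were seen.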
